A study of Mus musculus with 9 samples.

Results

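Cyclic nucleotide phosphodiesterases (PDEs) hydrolyse cyclic AMP and cyclic GMP and so end the signals that these second messengers carry. This account covers *Pde3b* and 9 other genes for enzymes that hydrolyse cAMP, *Pde3a*, *Pde4a*, *Pde4b*, *Pde4d*, *Pde7a*, *Pde7b*, *Pde8a*, *Pde8b* and *Pde10a*, in submandibular glands (SMGs) of adult male mice. These 10 genes were found by symbol among 17562 rows of the deposited expression table, and their raw counts were read by the same Ensembl identifier. *Pde3b* was chosen by its measured difference between the genotypes and the others were set against it. Their values between genotypes are thus given as a description without a p-value. Where calls by a tool are stated for these genes, they are tallies and not a test of them. RNAseq was made from 4 wildtype (WT) and 5 *Hs3st3a1*;*Hs3st3b1* double-knockout (DKO) mice, all on a C57BL/6 background, and each mouse gave 1 library, prepared with the Nextera XT kit without strand. In DKO mice *Hs3st3b1* carries a LacZ cassette and *Hs3st3a1* carries zinc finger nuclease frameshift deletions in exon 1. Both genes encode 3-*O*-sulfotransferases of heparan sulfate, and the loss is constitutive in all tissues. The founder line behind each DKO library is not given in the sources used here.

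In salivary acinar cells, adrenergic stimulation raises cAMP through stimulatory G proteins and adenylyl cyclases, and cAMP acts through protein kinase A and the EPAC exchange factors on protein secretion. PDEs limit the size and spread of that signal. The PDE3 enzymes prefer cAMP but are inhibited by cGMP, and PDE3B is known above all from adipocytes, liver and pancreatic beta cells, where insulin signaling activates it. The PDE4, PDE7 and PDE8 enzymes are specific for cAMP, while PDE10A hydrolyses both nucleotides and is best known from striatal neurons.

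Reads of one PDE gene could in principle be counted for a close relative, so the transcripts were compared first. Among all GENCODE M21 transcripts of the 10 genes, no stretch of 50 bases was shared between *Pde3b* and any other member, with 0 of its 9104 different 50-base words found in them, and the same held for *Pde3a* with 0 of 12688. Outside the members, 14 of the *Pde3b* words (0.154%) occurred in transcripts of other annotated genes on either strand, and 0 of the 12931 words of *Pde10a* did. The longest exact run between the longest coding sequences of any pair of members was 32 bases, in *Pde4b* and *Pde4d*. The closest ungapped stretch of the *Pde3a* and *Pde3b* coding sequences is printed to show how far apart the paralogs are where they are most alike. It lies within 1 exon of each gene in GRCm38, on the plus strand, at chr6:141487864-141487935 in *Pde3a* and chr7:114526886-114526957 in *Pde3b*. Capitals mark the 12 of 72 bases that differ, which leaves 83.3% identity.
Pde3a: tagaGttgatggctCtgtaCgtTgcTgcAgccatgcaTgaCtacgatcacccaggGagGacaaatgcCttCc
Pde3b: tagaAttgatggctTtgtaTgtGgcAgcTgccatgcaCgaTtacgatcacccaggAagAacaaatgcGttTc
*Pde3b* (ENSMUSG00000030671) spans chr7:114415281-114539251 on the plus strand, with 4 annotated transcripts, 9.11 kb of exon in union and 0 overlapping genes. Exons of *Pde3a*, *Pde7a* and *Pde8b* overlap exons of an annotated antisense gene (*Gm28523*, *Gm16093* and *Gm48420*), and in unstranded libraries reads of the 2 strands cannot be told apart.

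Total counts lay between 20653492 and 37870519 in WT and between 17053747 and 34683690 in DKO. *Hs3st3a1* had 3 to 14 counts in the WT libraries and 0 in all 5 DKO libraries, where a count of 0 allows up to 3, and *Hs3st3b1* lay at 2.99 to 5.37 CPM in WT and 0.508 to 1.85 CPM in DKO. CPM is the usual count scaled to library size, here with TMM normalization. Genes of serous and granular SMG cells marked the tissue, with 5 acinar markers at a summed 113708 to 176591 CPM in WT. Library DKO_1 stood apart in the sum over 7 markers of parotid and sublingual gland. It had 8175 CPM, against 25.5 to 106 CPM in WT and 58.6 to 203 CPM in the other DKO libraries. Of this sum, 7431 CPM came from *Bpifa2* and 637.5 CPM from *Amy1*. Not all 7 were highest in DKO_1: *Dcpp2*, *Dcpp3* and *Muc19* were highest in DKO_4, at 44.9, 64.3 and 6.13 CPM. Of the 13842 genes tested across all libraries, 87 passed edgeR's quasi-likelihood test at a Benjamini-Hochberg adjusted p under 0.05 (0.629%), 23 of them higher in DKO (0.166%) and 64 lower (0.462%). With library size alone as the scaling, the split was 21 higher and 336 lower. DESeq2 called 617 (4.46%). With 1 library left out at a time, edgeR called 0 to 441, with 0 without WT_1, WT_3, WT_4, DKO_2 or DKO_5 and 441 without DKO_4.

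*Pde3b* was low in WT glands and higher in each of the 5 DKO glands. In WT it had 0.357, 0.421, 0.398 and 0.172 CPM in libraries 1 to 4, from 8, 11, 18 and 4 counts. In DKO it had 2.26, 0.864, 3.21, 1.5 and 1.81 CPM in libraries 1 to 5, from 77, 21, 70, 38 and 25 counts. The lowest DKO library, DKO_2, was above the highest WT library, and the groups did not overlap. The means were 0.337 CPM ± 0.113 (SD, n = 4) in WT and 1.93 CPM ± 0.876 (SD, n = 5) in DKO, and the log2 fold change was 2.48 with an SE of 0.41. Summed over libraries, the counts were 41 in WT, with an exact Poisson 95% interval of 29.4 to 55.6, and 231 in DKO, with an interval of 202 to 263; these intervals cover counting error only. Without DKO_3, the library with the highest value, the log2 fold change was 2.22, and without DKO_1 it was 2.41. Of all genes tested, 19 (0.137%) had a larger log2 fold change. In bulk RNA, more cells that express a gene and more of its RNA per cell cannot be told apart.

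All 10 members passed the filter on low counts. At the median library size, its minimum of 10 counts makes 0.432 CPM before TMM scaling, and 2 of 4 WT libraries but all 5 DKO libraries reached this for *Pde3b*. *Pde10a* reached it in 2 WT and 4 DKO libraries, and the other 8 members in all 9 libraries. *Pde3b* and *Pde10a* would not have passed on their WT libraries alone, since 4 libraries were needed. In the contrast that chose *Pde3b*, it was the single member of 10 among the genes called by edgeR (0.629% of all genes tested), and *Pde3b* and *Pde10a* were among those called by DESeq2 (4.46%). With 1 library left out, edgeR's called genes held *Pde3b* in 2 of 9 fits, those without WT_2 and without DKO_4. Values of 3 members, *Pde3a*, *Pde3b* and *Pde10a*, were higher in every DKO library than in every WT library, a pattern seen in 2.49% of all genes tested, and 0 members were lower throughout, as seen in 3.51%.

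**Figure D1:**
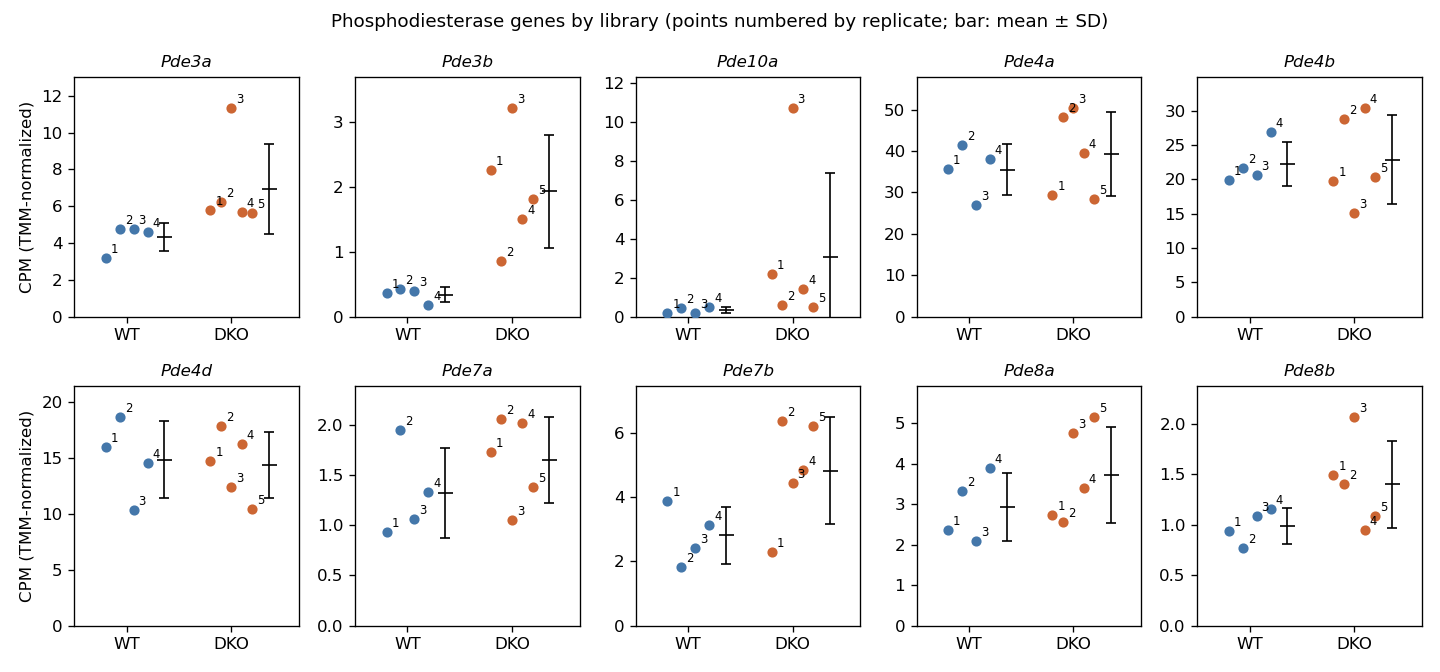
CPM of each of the 10 genes (vertical axes from 0, with a scale for each gene) in 4 WT (blue) and 5 DKO (orange) libraries, numbered by replicate, with the mean and SD as bars; the lower bar of *Pde10a* in DKO is cut at 0. *Pde3b* lies at 0.172 to 0.421 CPM in WT and 0.864 to 3.21 CPM in DKO, while the PDE4 genes overlap between genotypes.

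*Pde3a*, the other PDE3 gene, known from heart, platelets and oocytes, was more abundant than *Pde3b* per kb of exon in every library. It had 3.17, 4.78, 4.77 and 4.59 CPM in WT and 5.77, 6.21, 11.3, 5.69 and 5.66 CPM in DKO. The groups did not overlap, and DKO_3 lay far above the other 4 DKO libraries. The log2 fold change was 0.67 with an SE of 0.23, and 0.43 without DKO_3. Per kb of exon, *Pde3b* made up 4.97 to 13.6% of the summed *Pde3a* and *Pde3b* level in WT and 16.3 to 35.3% in DKO, with means of 9.99% ± 3.63 (SD, n = 4) and 27.6% ± 7.07 (SD, n = 5).

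*Pde10a* varied most between DKO libraries, and its place beside *Pde3b* depended on DKO_3 and on the tool. It had 0.179, 0.459, 0.199 and 0.472 CPM in WT and 2.17, 0.617, 10.7, 1.42 and 0.508 CPM in DKO. DKO_2 and DKO_5 lay just above the highest WT library, and DKO_3 held 233 of the 365 DKO counts. The log2 fold change was 3.26 with an SE of 0.90 against 2.48 for *Pde3b*. It was 1.92 against 2.22 without DKO_3, and 2.05 against 2.36 with limma-voom. Without DKO_3, the mean of the other 4 DKO libraries was 1.18 CPM ± 0.776 (SD, n = 4).

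The 3 PDE4 genes, which encode the cAMP-specific enzymes inhibited by rolipram, had the highest mean levels per kb of exon and overlapped between genotypes. *Pde4a* lay at 26.9 to 41.5 CPM in WT and 28.5 to 50.3 CPM in DKO, with a log2 fold change of 0.15 and an SE of 0.19. *Pde4b*, known from immune cells, lay at 19.8 to 26.9 CPM in WT and 15.1 to 30.3 CPM in DKO, with a log2 fold change of 0.04 and an SE of 0.19. *Pde4d*, known from heart and brain, lay at 10.3 to 18.6 CPM in WT and 10.5 to 17.9 CPM in DKO, with a log2 fold change of -0.04 and an SE of 0.19. For each of the 3 genes the difference was smaller than its SE, and its sign changed under at least 1 alternative setting, so none is given a direction. DKO_3 was the highest of the 9 libraries in *Pde4a* and the lowest in *Pde4b*.

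The PDE7 and PDE8 genes encode high-affinity cAMP enzymes that are insensitive to rolipram, and they lay between the PDE4 genes and *Pde3b* in difference. *Pde7b* had 3.88, 1.83, 2.41 and 3.13 CPM in WT and 2.28, 6.38, 4.45, 4.86 and 6.24 CPM in DKO, so that 4 of 5 DKO libraries were above all WT libraries and DKO_1 was within their range. Its log2 fold change was 0.78 with an SE of 0.30. *Pde7a*, known from T cells, lay at 0.937 to 1.95 CPM in WT and 1.05 to 2.06 CPM in DKO, with a log2 fold change of 0.33 and an SE of 0.28. *Pde8a* lay at 2.10 to 3.91 CPM in WT and 2.55 to 5.15 CPM in DKO, with a log2 fold change of 0.34 and an SE of 0.27. *Pde8b*, known from the adrenal and thyroid glands, lay at 0.765 to 1.16 CPM in WT and 0.949 to 2.06 CPM in DKO, with a log2 fold change of 0.51 and an SE of 0.27. In the last 3 genes the groups overlapped, with 2, 2 and 3 of 5 DKO libraries above all WT libraries.

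The 9 members beside *Pde3b* had a median log2 fold change of 0.34, against a median of 0.01 over all genes tested. Of these 9, 8 (88.9%) had positive values and 1 negative, beside 52.5% positive over all genes tested. The 8 include *Pde4a* and *Pde4b*, which were given no direction above, and *Pde10a*, which would not have passed the filter on its WT libraries alone. The members were chosen with earlier results of these data known. The share of positive values is thus a description and not a test of the family. With library size alone as the scaling, the median over all genes moved to -0.28 and that of the 9 members to 0.07, while *Pde3b* lay at 2.15. Relative to the median of all genes, these members were thus at nearly the same distance under both scalings.

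**Figure D2:**
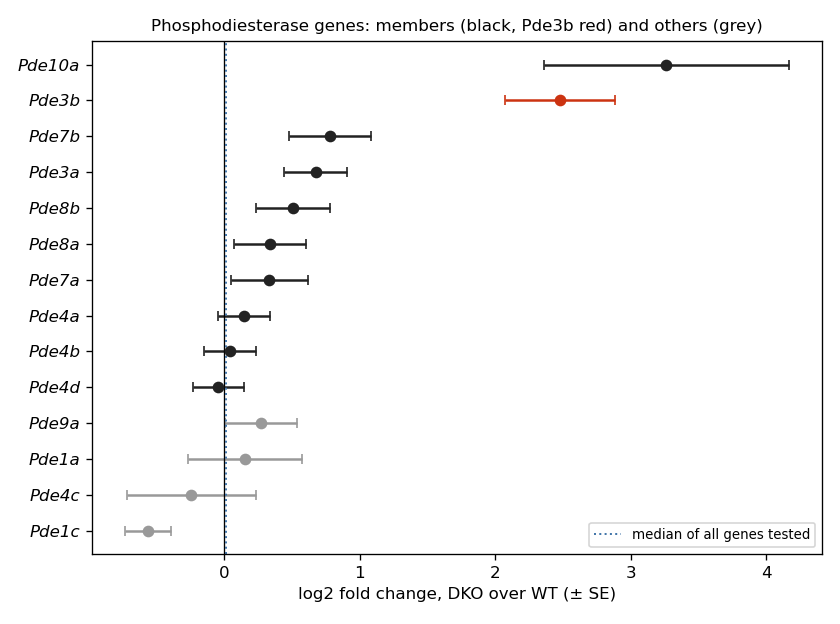
Log2 fold change of DKO over WT with its SE (horizontal axis) for the 10 members (black, *Pde3b* in red) and the 4 other PDE genes that were tested (grey); the dotted line is the median of all genes tested, 0.01. *Pde10a* and *Pde3b* lie at 3.26 and 2.48 and the next gene, *Pde7b*, at 0.78.

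Levels of different genes were compared as CPM per kb of union exon length. In WT the order was *Pde4a* (4.64 ± 0.816), *Pde4b* (2.10 ± 0.303), *Pde4d* (1.24 ± 0.290), *Pde8a* (0.723 ± 0.208), *Pde3a* (0.340 ± 0.0611), *Pde7b* (0.226 ± 0.0714), *Pde7a* (0.170 ± 0.0582), *Pde8b* (0.168 ± 0.0295), *Pde3b* (0.0369 ± 0.0124) and *Pde10a* (0.0255 ± 0.0125), as mean and SD of 4 libraries. *Pde4a*, *Pde4b*, *Pde8a* and *Pde8b* were each above the next gene in the order in all libraries of the group, and the other neighbours overlapped. *Pde3b* and *Pde10a* overlapped each other at the bottom of the order. In DKO the first 6 places were held by the same genes in the same order, and *Pde4a* was the one gene above its next neighbour in every library. Below them, *Pde10a* (0.240 ± 0.335), *Pde8b* (0.238 ± 0.0736), *Pde7a* (0.213 ± 0.0553) and *Pde3b* (0.212 ± 0.0962) overlapped one another in level, as mean and SD of 5 libraries. The order of means depended on the length used. Per kb of the longest transcript, *Pde7b* was above *Pde3a*, at 0.5248 against 0.3519 in WT and 0.9025 against 0.5633 in DKO. In DKO *Pde3b* was then above *Pde7a*, at 0.2934 against 0.2615.

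The summed level of the 10 genes was 9.67 CPM per kb ± 1.43 (SD, n = 4) in WT and 11.2 ± 1.88 (SD, n = 5) in DKO, and the groups overlapped. *Pde3b* took 0.419, 0.426, 0.561 and 0.176% of this sum in WT and 2.71, 0.742, 2.68, 1.40 and 2.13% in DKO. Its share was thus higher in every DKO library than in every WT library, with a mean of 0.396% ± 0.160 in WT and 1.93% ± 0.851 in DKO. *Pde4a*, *Pde4b* and *Pde4d* together took 81.1 to 84.2% in WT and 68.8 to 82.2% in DKO. Even in DKO glands *Pde3b* was a small part of the summed level of these 10 genes. Other PDE genes that act on cAMP, such as *Pde1c* and *Pde4c*, were not part of this sum. RNA levels say nothing here of protein or of enzyme activity, which were not measured in these files.

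**Figure D3:**
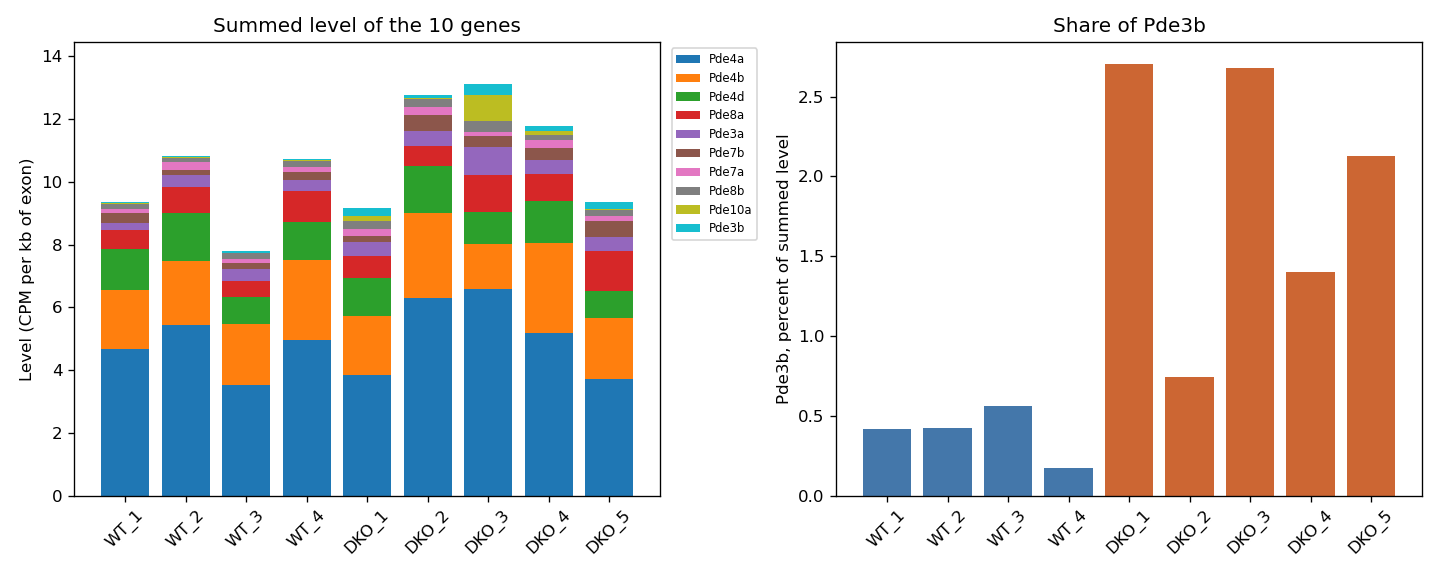
Left, CPM per kb of exon of the 10 genes stacked in each library; right, *Pde3b* as a percent of that sum (blue WT, orange DKO). The summed level overlaps between genotypes, while the *Pde3b* share is 0.176 to 0.561% in WT and 0.742 to 2.71% in DKO.

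*Pde3b* was read beside marker genes of the cell types a gland can hold. For the counts of calls below, edgeR called 0.629% and DESeq2 4.46% of all genes tested. Positive log2 fold changes made up 52.5% of all genes tested. The 8 adipocyte markers summed to 3.87 to 6.0 CPM in WT and 2.83 to 8.66 CPM in DKO and overlapped. Their sum was highest in DKO_3 and next highest in DKO_1 at 6.42 CPM, which is also the order of these libraries in *Pde3b*. In the other libraries the ranks did not match. WT_2 had a sum of 6.0 CPM with *Pde3b* at 0.421 CPM. DKO_5 had the lowest sum, 2.83 CPM, with *Pde3b* at 1.81 CPM. The sums were 3.70 and 3.12 CPM in DKO_2 and DKO_4. Of the 8, 4 were tested, 2 with positive and 2 with negative log2 fold changes, and 0 passed in edgeR or DESeq2. *Fabp4*, a fatty acid binding protein also found in endothelium, was the most counted of them, with 1.61 to 3.13 CPM in WT and 2.54 to 4.12 CPM in DKO. *Cfd* reached 47 counts in a library, *Cidec* 33, *Plin4* 18, *Adipoq* 14 and *Retn* 6, and *Plin1* and *Lep* at most 4. The 8 T cell markers summed to 2.63 to 4.4 CPM in WT and 1.47 to 6.80 CPM in DKO, lowest in DKO_3. The 6 endothelial markers summed to 21.5 to 31.0 CPM in WT and 29.9 to 34.4 CPM in DKO. Of them, 5 of 6 log2 fold changes were positive, and 0 passed in edgeR or DESeq2. The 6 granular duct markers summed to 38175 to 71484 CPM in WT and 16078 to 31958 CPM in DKO, and 0 of 6 passed in edgeR, while DESeq2 called 4 lower and 1, *Klk1*, higher. The 5 acinar markers summed to 175803 to 286919 CPM in DKO. The sum was highest in DKO_3, where *Mucl2* alone made 285218 CPM of it. *Lpo* and *Aqp5* were highest in DKO_5, and *Bhlha15* and *Smgc* in DKO_2. Of the 5, 1 passed in DESeq2, *Mucl2*, but 0 in edgeR. The 6 myoepithelial markers summed to 556 to 870 CPM in WT and 218 to 503 CPM in DKO. Of 5 tested, DESeq2 called 5 lower and edgeR 2. DKO_3 was the lowest library in both the granular duct and the myoepithelial sum. The 6 fibroblast markers summed to 358 to 586 CPM in WT and 150 to 434 CPM in DKO, with 6 of 6 log2 fold changes negative, and the 6 vascular mural markers to 21.9 to 25.7 CPM in WT and 19.4 to 30.9 CPM in DKO, with 6 of 6 positive, and 0 of either list passed in edgeR or DESeq2. The 6 skeletal muscle markers summed to 3.21 to 7.86 CPM in WT and 2.67 to 4.79 CPM in DKO, with 1 of 3 tested called lower by both tools and *Myh1* and *Myh4* at 0 counts. The B cell, myeloid and nerve lists overlapped between genotypes, with 0 genes passing in either tool. The part of these differences in the *Pde3b* values was not tested.

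The rest of the cAMP pathway was followed in 6 lists of 87 genes, of which 65 were tested. By edgeR's quasi-likelihood test 0 of 65 passed at an adjusted p under 0.05 in either direction, and limma-voom with quality weights also called 0, beside 0.629% and 1.07% of all genes tested, which would be fewer than 1 gene of 65. Without WT_2 edgeR called 2 (*Crtc3* higher, *Popdc2* lower), and without DKO_4 it called 1 (*Nr4a1* higher). At an unadjusted p under 0.05, 12 of 65 (18.5%) passed, 6 higher and 6 lower, against 14.5% of all genes tested. DESeq2 called 2 of 65, 1 higher and 1 lower, against 4.46% of all genes tested. The median log2 fold change over the 65 genes was 0.04 against 0.01 over all genes, with 57 of 65 (87.7%) within 0.5 of zero beside 86.2% of all genes.

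Of 11 other PDE genes, which act on cGMP, on both nucleotides or, as *Pde4c*, on cAMP, 4 were tested and 7 were under the filter, *Pde6c* with 0 counts. None of the 4 passed in edgeR or DESeq2, and 1, *Pde1c*, had an unadjusted p under 0.05. *Pde1c*, a calmodulin-activated enzyme for both nucleotides, had 5.41 to 6.81 CPM in WT and 2.75 to 4.82 CPM in DKO without overlap. Its log2 fold change was -0.56 with an SE of 0.17, and the adjusted p was 0.138 in edgeR and 0.0511 in DESeq2, and the alternative settings gave 0.0511 to 0.368. *Pde9a*, a cGMP-specific enzyme and the most abundant of them per kb, had 1.97 CPM ± 0.397 in WT and 2.35 CPM ± 0.807 in DKO, with a log2 fold change of 0.27 and an SE of 0.26. The 15 genes for adenylyl cyclases and G proteins had 12 tested, 0 called by either tool and a median log2 fold change of 0.07 (1 higher and 2 lower at an unadjusted p under 0.05). *Gnai3*, an inhibitory G protein subunit and the most abundant per kb, had 35.1 CPM ± 1.51 in WT and 36.7 CPM ± 6.88 in DKO. *Gnas*, the stimulatory subunit, had 242 counts over all libraries, and its locus holds overlapping transcripts, so its count is uncertain.

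The effectors of cAMP are protein kinase A, its inhibitors, the EPAC genes and the Popeye domain genes. Of 14, 12 were tested, 0 passed in edgeR and 1 in DESeq2, with a median log2 fold change of -0.05. *Prkar1b*, a regulatory subunit of protein kinase A, had 20.6, 22.6, 21.4 and 17.6 CPM in WT and 16.7, 15.1, 13.4, 14.6 and 15.5 CPM in DKO, and the groups did not overlap. Its log2 fold change was -0.45 with an SE of 0.11. The adjusted p was 0.0709 in edgeR and 0.00841 in DESeq2, and the alternative settings gave 0.00841 to 0.222. *Prkar1a*, the most abundant effector per kb and a regulatory subunit of the same kinase, had 199 CPM ± 5.41 in WT and 199 CPM ± 27.8 in DKO. Of 16 genes for A-kinase anchoring proteins, which hold the kinase near its substrates, 11 were tested and 0 passed in either tool, with a median of 0.03 (1 higher and 1 lower at an unadjusted p under 0.05). *Akap8*, a nuclear anchoring protein and the most abundant per kb, had 32.8 CPM ± 5.67 in WT and 36 CPM ± 4.62 in DKO.

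The list of CREB, its coactivators and genes known to respond to it had 15 of 18 genes tested, with 0 called by edgeR, 1 by DESeq2 and a median log2 fold change of 0.27. Of these 15, 10 (66.7%) were positive beside 52.5% of all genes tested. In edgeR 3 (20%) had an unadjusted p under 0.05, beside 14.5% of all genes in either direction. All 3 were higher, and the share of all genes that were higher at this threshold was not tallied. *Nr4a1*, an immediate early nuclear receptor, had 26.8, 36.4, 39.8 and 40.7 CPM in WT and 48.1, 59.3, 63.8, 45.5 and 56.7 CPM in DKO, and every DKO library was above every WT library. Its log2 fold change was 0.60 with an SE of 0.15, and the adjusted p was 0.0702 in edgeR and 0.00629 in DESeq2, and the alternative settings gave 0.00629 to 0.232. Among 13 partners of *Pde3b* in phosphoinositide 3-kinase and insulin signaling, 11 were tested, and 0 passed in edgeR, in DESeq2 or at an unadjusted p under 0.05 in edgeR, with a median log2 fold change of 0.01. *Ywhae*, a 14-3-3 protein gene and the most abundant partner per kb, had 362 CPM ± 39.0 in WT and 348 CPM ± 41.5 in DKO.

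**Figure D4:**
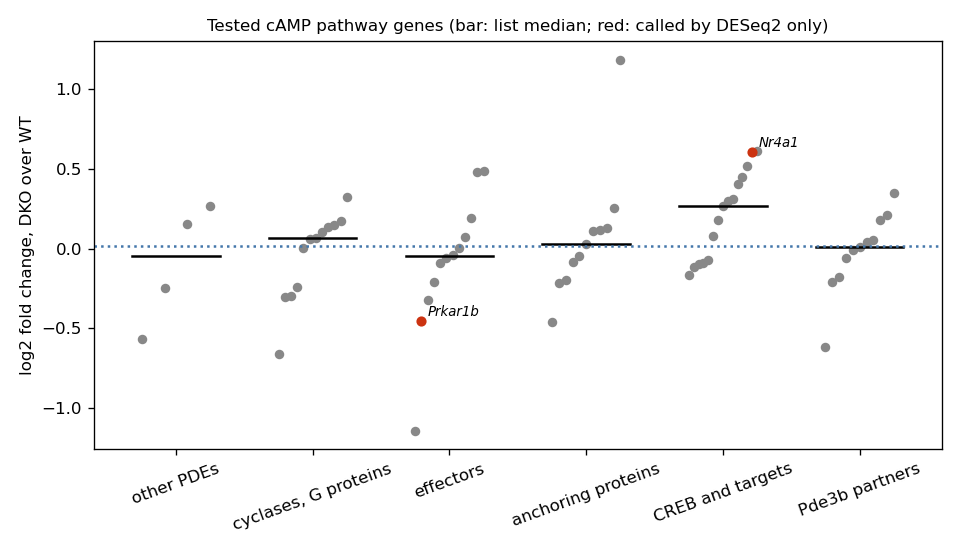
Log2 fold change of DKO over WT (vertical axis) for the 65 tested genes of the 6 cAMP pathway lists, 1 point per gene, with list medians as black bars and the median of all genes as a dotted line. Genes in red, *Prkar1b* and *Nr4a1*, passed in DESeq2 and not in edgeR.

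The tested genes outside the members with the pattern most like *Pde3b* were found by the mean absolute difference over the 9 libraries of log2 CPM (prior count 2) relative to the WT mean. The closest was *Dgki*, a diacylglycerol kinase, at 0.396 log2 units, followed by *Dleu7* at 0.423, *Ceacam10* at 0.424, *A830018L16Rik* at 0.458 and *Snph*, a mitochondrial anchoring protein of axons, at 0.472. Their log2 fold changes were 2.47, 2.73, 1.94, 1.83 and 2.56. DKO_3 was the highest library in *Pde3b*, *Dgki*, *Dleu7* and *Snph*. In *Dgki*, DKO_4 was at -0.01 log2 units from the WT mean, whereas in *Pde3b* it was at 1.99. The measure compares levels over 9 libraries that share a genotype split, and every gene with a difference of this size scores well in it.

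**Figure D5:**
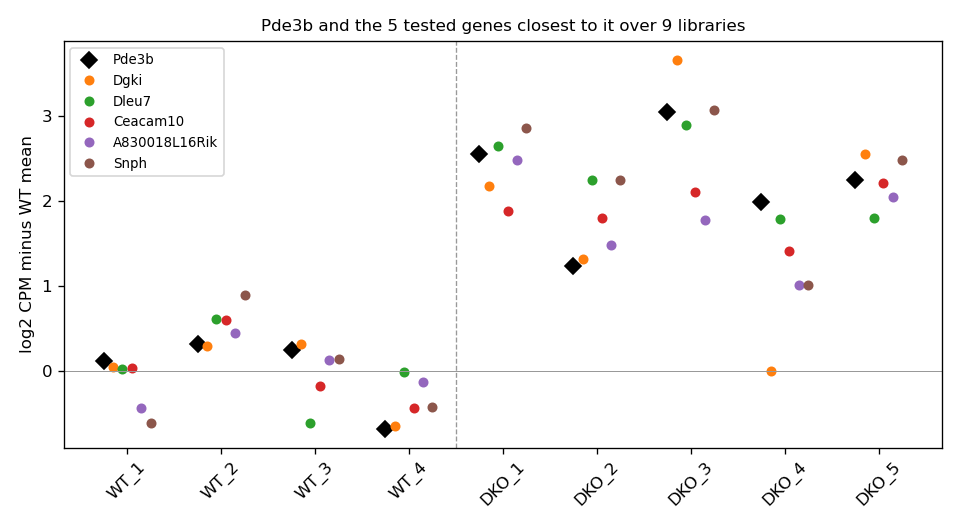
Log2 CPM minus the WT mean (vertical axis) of *Pde3b* (black diamonds) and the 5 tested genes closest to it in each of the 9 libraries, WT left and DKO right of the dashed line. *Pde3b* lies at 1.24 to 3.04 log2 units in the DKO libraries.

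The protein-coding neighbours of *Pde3b* on chromosome 7 were *Rras2*, *Copb1* and *Psma1* on one side and *Cyp2r1*, *Calca* and *Calcb* on the other. In edgeR *Rras2*, a small GTPase, had a log2 fold change of 0.36 with an SE of 0.25 (adjusted p = 0.568), and *Cyp2r1*, a vitamin D hydroxylase, 0.42 with an SE of 0.60 (adjusted p = 0.817). *Copb1*, a coatomer subunit, had 0.13 with an SE of 0.10 (adjusted p = 0.614), and *Psma1*, a proteasome subunit, -0.09 with an SE of 0.09 (adjusted p = 0.708). *Calca* and *Calcb*, the genes for calcitonin gene-related peptides, had at most 2 counts in any library and were not tested. The groups overlapped in all 4 tested neighbours.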

How the data were processed

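The authors deposited raw counts of reads per gene for 48733 rows, a filtered version of these counts with 17562 rows, and a signal table of TMM-normalized CPM made from the filtered counts. All 158058 values of that table gave back whole reads equal to the filtered counts (relative tolerance 0.001), and an added fit on those reads called 87 genes. Columns of per-sample values left unmapped numbered 0. The submitters' processing notes name STAR 2.5.2a, DESeq2, edgeR and limma, without roles. The counting tool and its annotation are not given in the sources used here. The study's methods name DESeq2.

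The model for raw counts used edgeR 4.0.16 under R 4.3.3: TMM factors, a filter on low counts (minimum count 10, minimum total 15, 13842 genes left), and a quasi-likelihood model of genotype alone. Standard errors are the log2 fold change over the square root of F. DESeq2 1.42.0 and limma 3.58.1 were alternatives, beside other scalings, filters, a replicate block and leaving out each library. Scripts were tested on simulated counts. Exon lengths and transcripts came from GENCODE M21 (GRCm38), with a model for 48349 rows. Summaries used Python 3.11.15 and pandas 2.3.3.

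The members and lists were chosen with earlier results of these data known. Genes named are the 10 members, pathway genes called by edgeR or, up to 8, by DESeq2 alone, the most abundant gene of each pathway list, the 5 genes most like *Pde3b*, 3 protein-coding neighbours on each side, and the deleted genes. *Gnas*, *Pde1c*, *Pde4c*, *Pde6c*, *Crtc3*, *Popdc2* and single markers were named outside this rule after their values were seen. Adjusted p-values are Benjamini-Hochberg over all genes tested. Of the pathway lists, 1 gene is not reported here and was left out of their counts. Female libraries were not analysed here.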

Additional observations from a re-analysis of the deposited data

Results flagged for a closer look

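Single libraries lay far from the rest of their group in 7 of 60 groups of 4 or 5 values examined, where chance flags about 5% of groups. *Pde3a* was 3.17 CPM in WT_1 against 4.59 to 4.78 CPM in the other WT libraries. In DKO_3, *Pde3a* was 11.3 CPM against 5.66 to 6.21 CPM in the other DKO libraries, *Pde10a* was 10.7 CPM against 0.508 to 2.17 CPM, and *Ywhae* was 422 CPM against 327 to 334 CPM. *Pde1c* was 2.75 CPM in DKO_3 against 4.35 to 4.82 CPM. Among the neighbours, *Rras2* was 1.49 CPM in WT_2 against 1.29 to 1.3 CPM, and *Calca* was 0.0893 CPM in WT_1, from 2 counts, against 0 in the other WT libraries.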

How the results depend on the processing

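The *Pde3b* log2 fold change was positive in all 17 alternatives (2.15 to 2.67), and leaving out 1 library at a time gave 2.22 to 2.67. *Pde3b* was chosen by its difference between these same libraries, so its sign is a description. For every member, the 17 include the fit on recovered reads, which repeated the main values. The median over the other 9 members was 0.067 with library size alone, and 0.23 to 0.51 without single libraries. *Pde3a*, *Pde7a*, *Pde7b*, *Pde8a*, *Pde8b* and *Pde10a* kept a positive sign in every alternative that gave a value. With library size alone, however, *Pde8a*, *Pde7a* and *Pde8b* lay at 0.023, 0.067 and 0.185, each smaller than its SE in the main fit. *Pde4a*, *Pde4b* and *Pde4d* kept their sign in 16, 13 and 12 of 17. *Pde10a* had no value with at least 1 CPM in 4 libraries. The *Pde3b* share of the summed level in DKO was 1.74 to 2.23% without single libraries and 1.46% with the longest transcript as length.

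Counts of called genes moved most. Against 87, there were 357 with library size alone, 347 with no filter beyond 1 count, 617 with DESeq2, 148 with limma-voom and 0 to 441 without single libraries: 0 without WT_1, WT_3, WT_4, DKO_2 or DKO_5, 1 without DKO_1, 2 without DKO_3, 306 without WT_2 and 441 without DKO_4. *Pde3b* was among the called genes in 2 of the 9 fits that left out a library and in 7 of the 8 other alternatives. Since this contrast chose the gene, these tallies describe how calls moved and are not a test of *Pde3b*. The fit on recovered reads, among those 8, had the same counts as the main fit and could not differ from it. Pathway genes called higher numbered 1 with DESeq2 and 0 to 1 without single libraries. Those called lower numbered 1 with library size alone (*Prkar1b*), 1 with DESeq2 and 0 to 1 without single libraries. Without WT_2 the calls were *Crtc3* and *Popdc2*, and without DKO_4 *Nr4a1*. The causes were not tested. A replicate block called 0 genes (2024 at an unadjusted p under 0.05) and gave 2.46 for *Pde3b*. Same-numbered libraries correlated at 0.15, 0.298, 0.0739 and 0.0136, not all above 0.1, so the numbers were not taken as pairs, and 2 of 4 numbers correlated best with their own. Low counts of *Pde3b* and *Pde10a* in WT limit the precision of their folds. Of the 5 genes most like *Pde3b*, 4 remained with a prior count of 0.5 and 4 with a root mean square difference.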
